A study of Mus musculus with 18 samples.

Results

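The 40 genes described here are mouse genes that serve amino acid supply and the charging of transfer RNAs, in myeloid progenitors with altered mTORC1 signalling. They were taken by gene symbol: ATF4 and genes of its stress response, enzymes that make serine, proline and asparagine or carry one-carbon units, and cytosolic aminoacyl-tRNA synthetases. All 40 symbols were among the 22787 genes of the expression table. The list holds 8 stress regulators, 10 enzymes of amino acid synthesis, 6 one-carbon enzymes and 16 synthetases.

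The study sequenced RNA from 18 libraries in 7 groups, made with the low-input SmartSeq2 protocol, which does not mark strand. The 4 progenitor groups were granulocyte-monocyte progenitors (GMPs) sorted from the bone marrow of mice titled Raptor KO or Tsc2 KO and of their controls, titled Raptor fl/fl and Tsc2 fl/fl, with 3 libraries each and 10000 sorted cells per sample. The sort took Kit-positive, Sca-1-negative cells that bound Fc gamma receptor antibody, with low CD34 and low Ly6C. The remaining groups were DR-ER-Hoxb8 cells, an immortalized myeloid progenitor cell line, with 2 libraries each. All Hoxb8 groups had been taken out of estradiol, which keeps the Hoxb8 fusion protein active, and differentiated for 3 days in medium with stem cell factor. They received DMSO, 100 nM rapamycin or 10 nM SL0101-01. The floxed groups are the controls of their own line, and the DMSO libraries are the control of both inhibitors. The Cre driver and the age of the mice are not given in the sources used here. Nothing in the labels says that replicates came from separate animals or cultures, so p-values measure the spread between these libraries, which may be partly technical. Each gene's spread was estimated from all 4 GMP groups together, and in Hoxb8 cells from all 3 groups together. A p-value for 1 mouse line thus also draws on the spread of the other line.

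mTORC1 is a kinase complex that couples growth to nutrients, and Raptor is the subunit that brings it its substrates. TSC2 restrains mTORC1, so loss of Tsc2 is known to activate it, and rapamycin inhibits it. ATF4 is a transcription factor of the integrated stress response whose protein is made mainly by translational control, when eIF2alpha is phosphorylated or mTORC1 is active. ATF4 and its partners of the C/EBP family bind a composite element, and the genes they are known to serve include Asns, enzymes of serine and mitochondrial folate metabolism, and many cytosolic synthetases. SL0101 is known as an inhibitor of RSK, a kinase downstream of ERK.

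The composite element was searched as TGATGNAA on both strands (TTNCATCA on the reverse) in RefSeq promoter windows of mouse build GRCm38.p6, each running from 250 bases before to 50 bases after a gene's start. Of the 40 genes, 30 had a window there, and 11 of these 30 genes (36.7%) held the letters, against 4.51% of all 27025 genes with a window. The 11 were Atf3, Trib3, Chac1, Asns, Pycr1, Got1, Aars, Gars, Iars, Tars and Yars. By role, 3 of 7 stress regulators, 3 of 9 amino acid enzymes, 5 of 9 synthetases and 0 of 5 one-carbon enzymes held it. The list was drawn up around ATF4 and genes of its stress response, so a higher share than in all genes may follow from that choice. A match describes letters only and is not evidence of binding. The 5 windows shown are those of Asns, the textbook target, and of 4 synthetases whose values are given later, with the matching bases in capitals. They lie at chr6:7693160-7693459 on the minus strand (Asns), chr15:11399609-11399908 on the minus strand (Tars), chr6:55037751-55038050 on the plus strand (Gars), chr4:129189653-129189952 on the plus strand (Yars) and chr8:111033592-111033891 on the plus strand (Aars). Each is written 5′ to 3′ on the gene's own strand, and base 250 is the last before the start.
Asns: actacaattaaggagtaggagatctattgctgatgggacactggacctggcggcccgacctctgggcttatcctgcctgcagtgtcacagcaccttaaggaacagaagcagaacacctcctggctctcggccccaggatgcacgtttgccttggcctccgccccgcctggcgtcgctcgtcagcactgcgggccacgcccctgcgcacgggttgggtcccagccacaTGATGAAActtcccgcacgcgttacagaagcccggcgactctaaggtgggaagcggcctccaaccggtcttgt
Tars: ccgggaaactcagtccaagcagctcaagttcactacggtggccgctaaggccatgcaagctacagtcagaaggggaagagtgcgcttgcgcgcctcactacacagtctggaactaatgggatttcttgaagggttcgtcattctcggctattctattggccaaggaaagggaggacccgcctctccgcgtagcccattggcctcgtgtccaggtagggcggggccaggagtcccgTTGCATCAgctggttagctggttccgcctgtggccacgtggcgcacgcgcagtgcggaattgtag
Gars: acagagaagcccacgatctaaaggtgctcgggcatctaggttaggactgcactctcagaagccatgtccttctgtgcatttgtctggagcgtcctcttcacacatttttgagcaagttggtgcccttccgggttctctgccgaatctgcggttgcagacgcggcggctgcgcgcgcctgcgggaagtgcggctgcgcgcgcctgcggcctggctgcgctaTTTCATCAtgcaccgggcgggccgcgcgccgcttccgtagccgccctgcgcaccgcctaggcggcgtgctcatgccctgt
Yars: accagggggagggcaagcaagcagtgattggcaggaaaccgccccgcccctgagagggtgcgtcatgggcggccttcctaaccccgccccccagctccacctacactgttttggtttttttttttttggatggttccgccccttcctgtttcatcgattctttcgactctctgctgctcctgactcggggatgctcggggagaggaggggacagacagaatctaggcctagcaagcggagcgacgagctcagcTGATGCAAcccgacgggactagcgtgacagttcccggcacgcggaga
Aars: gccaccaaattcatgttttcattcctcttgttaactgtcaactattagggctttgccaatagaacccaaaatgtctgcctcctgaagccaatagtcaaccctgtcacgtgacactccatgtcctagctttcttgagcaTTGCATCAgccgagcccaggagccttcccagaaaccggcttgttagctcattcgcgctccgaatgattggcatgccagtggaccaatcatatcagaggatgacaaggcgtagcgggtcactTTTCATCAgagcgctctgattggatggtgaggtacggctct
In these windows the match began at base 228 for Asns, 236 for Tars, 221 for Gars and 254 for Yars, and the Aars window held it at bases 139 and 260. Asns and Yars carry it on the gene's strand, and Tars, Gars and both Aars matches on the opposite strand.

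Values are the authors' size-factor-normalised fragments per gene, called normalised fragments here, and they are not divided by gene length, so levels are compared between libraries and never between genes. Depth was 2.48 to 3.52 M fragments per GMP library and 2.31 to 3.30 M per Hoxb8 library. Tsc2 itself was 269, 235 and 241 normalised fragments in Tsc2 fl/fl cells and 103, 99.0 and 83.0 in Tsc2 KO cells, and Rptor was 88.0, 78.6 and 86.8 in Raptor fl/fl cells and 61.5, 58.7 and 69.5 in Raptor KO cells. The fall passed the test for Tsc2 (limma, adjusted p = 0.000169) and not for Rptor (adjusted p = 0.377), and exons outside a deleted part are still counted. In the labels, 1 field of the Tsc2 samples names Raptor, so the groups follow the titles. Marker levels differed between the GMP libraries. Summed over 11 markers of the GMP gate (Mpo, Elane and others), libraries reached 70906 to 81429 normalised fragments in Raptor fl/fl cells and 64249 to 66750 in Raptor KO cells. In the Tsc2 line the same sum was 78577, 36986 and 83016 in fl/fl and 40985, 8845 and 13264 in KO libraries. The sum over 15 erythroid markers (Gata1, Klf1, globins and others) was 3803, 12872 and 6701 in Tsc2 fl/fl, 14606, 29260 and 26281 in Tsc2 KO, 5036 to 5496 in Raptor fl/fl cells and 2444 to 3004 in Raptor KO cells. In bulk RNA, fewer cells of a type and less RNA per cell cannot be told apart. Libraries 2 of Tsc2 fl/fl and of Tsc2 KO came from male mice by their Y-linked fragments, and the other 10 GMP libraries had at most 1 such fragment each. Each Tsc2 group thus held more than 1 animal, while for the other groups this stays unknown.

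Many of these genes rose with loss of Tsc2. Of 39 genes tested, 18 rose and 1 fell in Tsc2 KO against Tsc2 fl/fl GMPs, where 5.26% of all 13237 genes tested rose and 7.12% fell (limma, adjusted p below 0.05). The rise took in Asns, Aldh18a1, Mthfd1, Mthfd2, 9 of 16 synthetases and 5 of 8 stress regulators, and the gene that fell was Shmt1. The median log2 fold change was 0.64 over the 39 genes and −0.02 over all genes tested. In 26 genes every KO library lay above every fl/fl library and in 0 genes every one lay below, against 14.6% and 13.3% of all genes. Log2 fold changes here and later are of the value plus 1, which understates changes of low genes. The 1 gene not tested, Aldh1l2, a mitochondrial formyltetrahydrofolate dehydrogenase, was at 0 in all 18 libraries, where 3 fragments would be worth 1.99 to 3.36 normalised fragments.

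Among the stress regulators, the mRNA of Atf4 itself did not pass the test. Atf4 was 1292, 855 and 1055 normalised fragments in Tsc2 fl/fl cells and 1004, 812 and 821 in Tsc2 KO cells, and these ranges overlap. Its log2 fold change was −0.27 (95% confidence interval −0.56 to 0.02, limma adjusted p = 0.227). Ddit3, which encodes the stress factor CHOP, was 111, 65.1 and 68.7 in Tsc2 fl/fl cells and 133, 183 and 140.0 in Tsc2 KO cells. All KO libraries were above all controls, and Ddit3 rose 1.89-fold (log2 0.92, SE 0.23, adjusted p = 0.0154). Eif4ebp1, the translation repressor that mTORC1 phosphorylates, was 313, 369.7 and 384 in Tsc2 fl/fl cells and 526, 767 and 806 in Tsc2 KO cells. It rose 1.94-fold (log2 0.96, SE 0.19, adjusted p = 0.00474), again with no overlap.

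Sesn2, a leucine-binding inhibitor of mTORC1, was 14.7, 22.0 and 5.64 normalised fragments in Tsc2 fl/fl cells and 47.1, 70.1 and 79.3 in Tsc2 KO cells. It rose by 2.28 on the log2 scale (SE 0.60, adjusted p = 0.0189). Chac1, an enzyme that degrades glutathione, was listed at 0, 0 and 2.82 in Tsc2 fl/fl cells and at 9.94, 15.8 and 13.3 in Tsc2 KO cells. Its call passed (adjusted p = 0.0125). Only 3 fragments in all stood behind the control values and 56 behind the KO values, a ratio of 14.7 with an exact 95% interval of 4.78 to 73.5 that covers counting error only. Trib3, a pseudokinase that feeds back on ATF4, was 5.20, 1.69 and 0.941 in Tsc2 fl/fl cells and 5.97, 14.4 and 12.6 in Tsc2 KO cells. The Trib3 groups did not overlap, yet the test did not pass (log2 1.83, SE 0.68, adjusted p = 0.085). Atf3, a stress and immediate early factor, was 212, 194 and 362 in Tsc2 fl/fl cells and 522, 359 and 395 in Tsc2 KO cells. The lowest KO library lay within the control range, and the rise of 0.77 on the log2 scale passed narrowly (SE 0.24, adjusted p = 0.0469). Atf5, a relative of Atf4, stayed at 7.96 or less in the Tsc2 line and did not pass (adjusted p = 0.822).

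**Figure D1:**
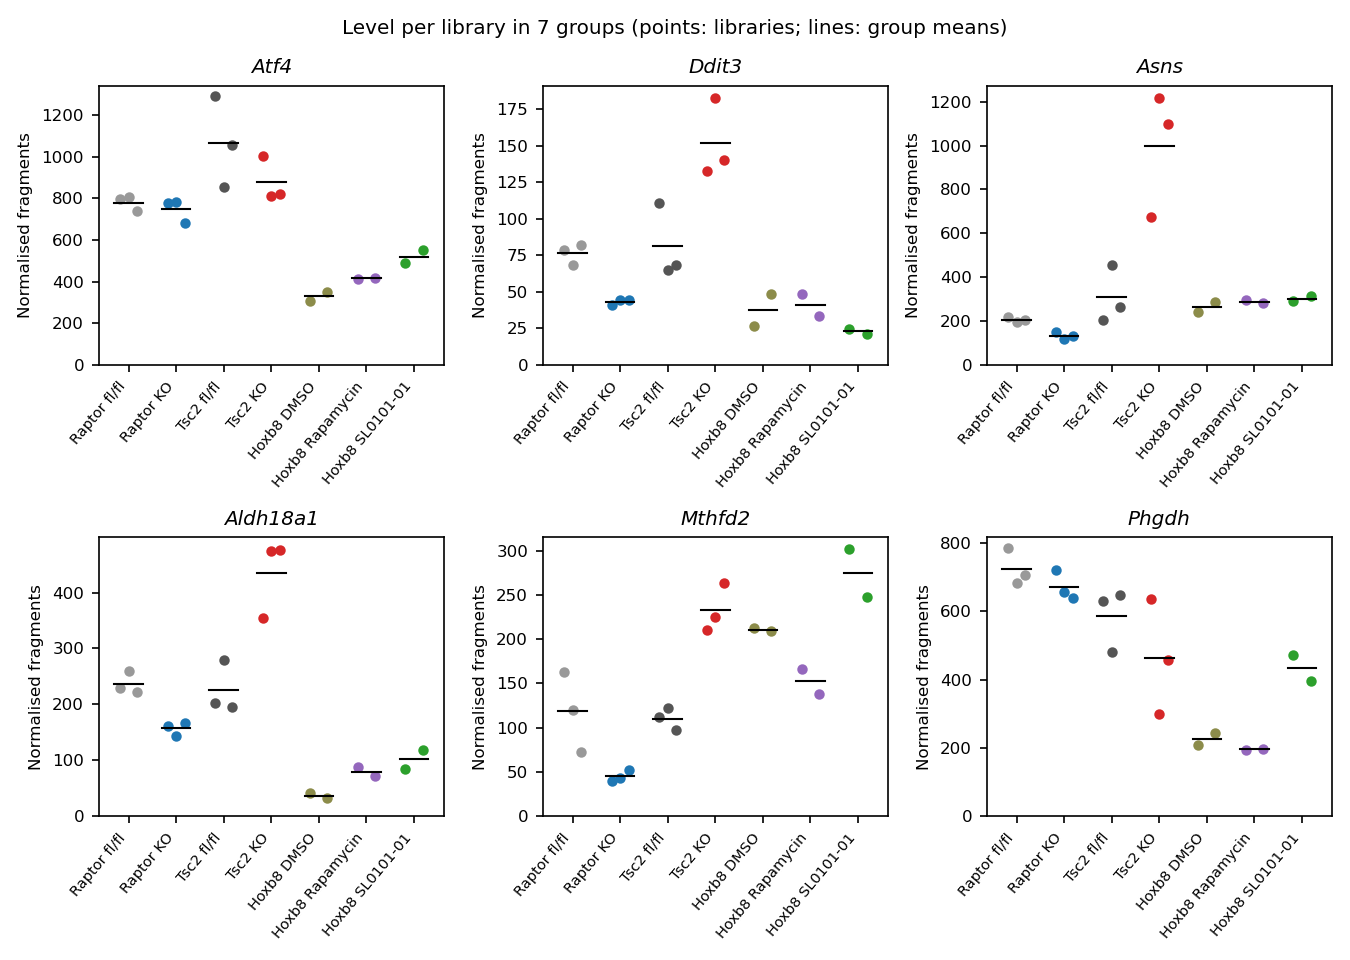
Normalised fragments of 6 genes (vertical axes) in each of the 18 libraries, by group (horizontal axes); points are libraries and lines are group means. Among the GMP groups, Asns, Aldh18a1 and Mthfd2 are highest in Tsc2 KO and lowest in Raptor KO, while Atf4 and Phgdh do not separate Tsc2 KO from its control.

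Among enzymes of amino acid synthesis, Asns and Aldh18a1 rose in Tsc2 KO cells, and none of the 3 serine enzymes passed. Asns, which makes asparagine, was 204, 455 and 265 normalised fragments in Tsc2 fl/fl cells and 676, 1217 and 1101 in Tsc2 KO cells. The lowest KO library exceeded the highest control, and Asns rose 3.32-fold (log2 1.73, SE 0.25, adjusted p = 0.000838). Aldh18a1, which opens the route from glutamate to proline, was 203, 280.0 and 196 in Tsc2 fl/fl cells and 354, 475 and 476 in Tsc2 KO cells. It rose 1.93-fold (log2 0.95, SE 0.17, adjusted p = 0.00158). Phgdh, the first enzyme of serine synthesis, was 632, 481 and 649 in Tsc2 fl/fl cells and 635, 299.9 and 458 in Tsc2 KO cells (log2 −0.39, interval −0.82 to 0.03, adjusted p = 0.223). Psat1, the next enzyme of that route, was 657, 618 and 734 in Tsc2 fl/fl cells and 912, 569 and 716 in Tsc2 KO cells (log2 0.11, interval −0.19 to 0.41, adjusted p = 0.697). For both serine enzymes the groups overlap. Psph, the last serine enzyme, Pycr1 of proline synthesis, the transaminases Gpt2 and Got1, and Cth and Cbs of cysteine synthesis did not pass either (adjusted p from 0.115 to 0.81). Of these, Cth was listed at 0, 4.23 and 3.76 in Tsc2 fl/fl cells and at 9.28, 6.19 and 13.3 in Tsc2 KO cells.

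The one-carbon enzymes split. Mthfd1, the cytosolic enzyme that interconverts folate one-carbon forms, was 586, 1065 and 777 normalised fragments in Tsc2 fl/fl cells and 1242, 1711 and 1707 in Tsc2 KO cells. It rose 1.95-fold (log2 0.97, SE 0.17, adjusted p = 0.00175). Mthfd2, its mitochondrial counterpart, was 112, 122 and 96.9 in Tsc2 fl/fl cells and 211, 225 and 264 in Tsc2 KO cells. It rose 2.11-fold (log2 1.07, SE 0.24, adjusted p = 0.00828), and neither gene's groups overlap. Shmt1, the cytosolic serine hydroxymethyltransferase, was 182, 170.1 and 238 in Tsc2 fl/fl cells and 185, 71.5 and 93.3 in Tsc2 KO cells. KO library 1 lay within the control range, and Shmt1 fell by 0.85 on the log2 scale (SE 0.25, adjusted p = 0.0358). Shmt2, its mitochondrial form, was 544, 546 and 599 in Tsc2 fl/fl cells and 659.6, 701 and 725 in Tsc2 KO cells, and Mthfd1l was 202, 302 and 235 and then 280.4, 368 and 356. Neither passed (log2 0.31 and 0.45, adjusted p = 0.109 and 0.097).

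All 16 synthetases had a log2 fold change above 0 in Tsc2 KO cells, 9 passed, and in 14 no KO library overlapped a control. Synthetases join each amino acid to its transfer RNA, and each is named by the amino acid it loads. Hars (histidine) was 323, 464 and 397 normalised fragments in Tsc2 fl/fl cells and 573, 796 and 787 in Tsc2 KO cells. Sars (serine) was 299, 332 and 315 in Tsc2 fl/fl cells and 418, 555 and 619 in Tsc2 KO cells. Gars (glycine) was 484, 598 and 550.2 in Tsc2 fl/fl cells and 687, 856 and 921 in Tsc2 KO cells. These 3 gave the smallest adjusted p-values among synthetases, with log2 0.86 for Hars (SE 0.16, adjusted p = 0.0021), 0.73 for Sars (SE 0.15, adjusted p = 0.00399) and 0.59 for Gars (SE 0.13, adjusted p = 0.00768). Aars (alanine) was 134, 188 and 192 in Tsc2 fl/fl cells and 261, 355 and 382 in Tsc2 KO cells. Cars (cysteine) was 147, 106 and 85.6 in Tsc2 fl/fl cells and 157, 200.1 and 231 in Tsc2 KO cells. Aars rose by 0.96 on the log2 scale (SE 0.26, adjusted p = 0.023) and Cars by 0.81 (SE 0.22, adjusted p = 0.0207), and in Cars the lowest KO library stood just above the highest control.

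Iars (isoleucine) was 222, 333 and 335 normalised fragments in Tsc2 fl/fl cells and 392, 532 and 541 in Tsc2 KO cells. Lars (leucine) was 269, 272 and 277 in Tsc2 fl/fl cells and 399, 461 and 461 in Tsc2 KO cells. Both rose with no overlap, Iars by 0.73 on the log2 scale (adjusted p = 0.0132) and Lars by 0.69 (adjusted p = 0.0121). Mars (methionine) was 297, 358 and 347 in Tsc2 fl/fl cells and 397, 552 and 564 in Tsc2 KO cells. Yars (tyrosine) was 169, 266 and 213 in Tsc2 fl/fl cells and 354, 289.5 and 355 in Tsc2 KO cells. Mars rose by 0.58 (adjusted p = 0.0168) and Yars by 0.64 (adjusted p = 0.0433). Of the 7 that did not pass, Eprs, Nars, Tars, Wars and Rars had groups that did not overlap, with log2 fold changes from 0.21 for Wars to 0.46 for Rars. Vars and Kars overlapped, and Kars (lysine) had the smallest change, 707, 843 and 829.5 in Tsc2 fl/fl against 820.0, 814 and 821 in Tsc2 KO (log2 0.05, interval −0.18 to 0.28).

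**Figure D2:**
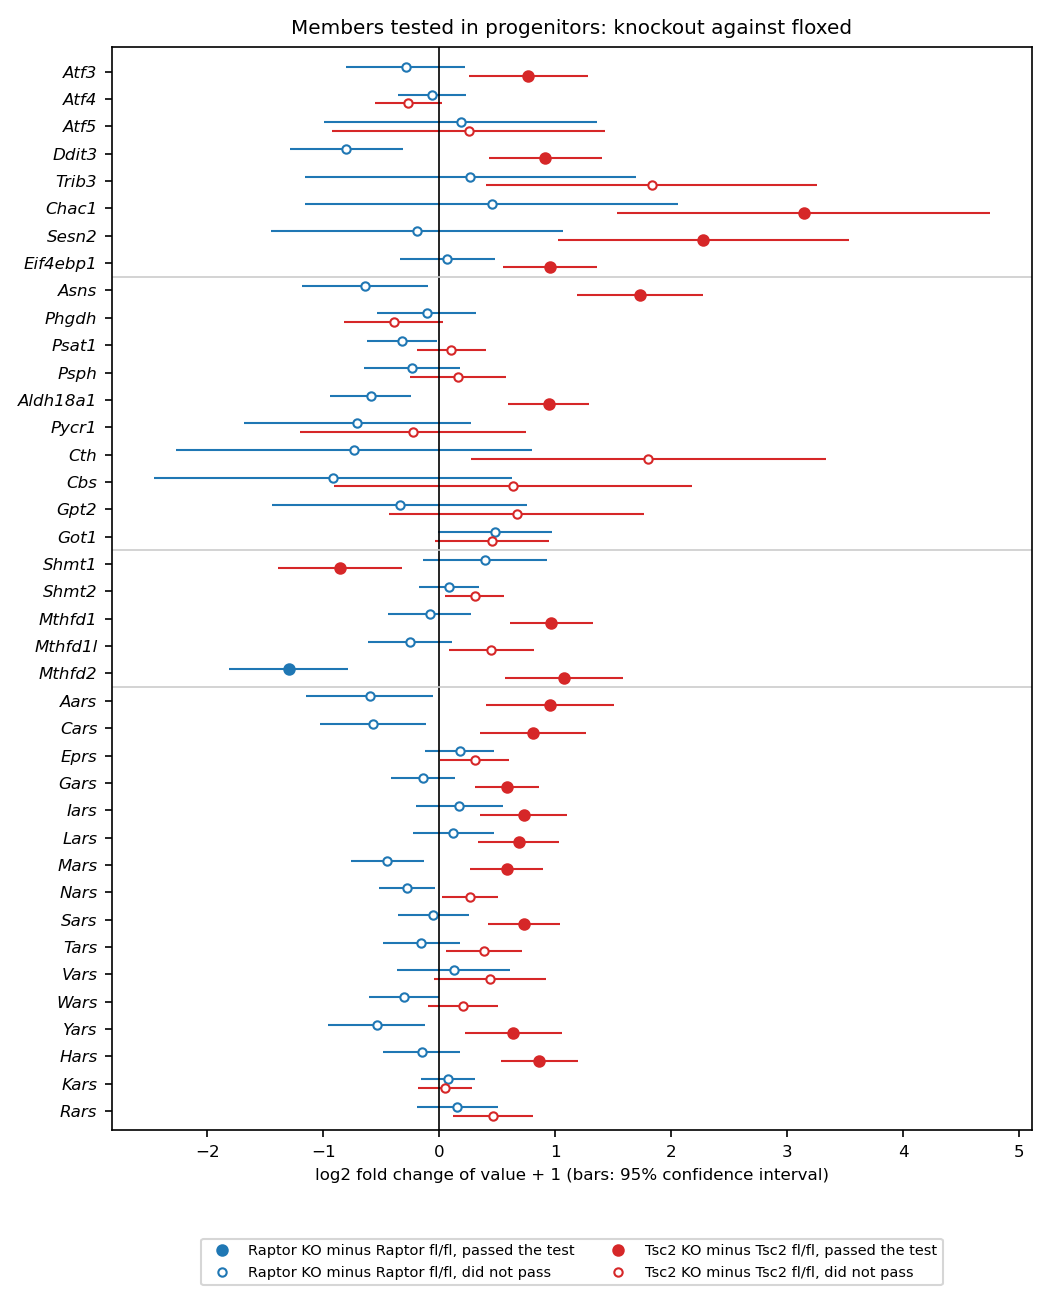
Log2 fold change of each of the 39 genes tested (horizontal axis, value plus 1) in Tsc2 KO and in Raptor KO against the fl/fl group of the same line; bars are 95% confidence intervals and filled points passed the test. In Tsc2 KO 18 genes passed above 0 and Shmt1 below it, while in Raptor KO Mthfd2 alone passed, below 0.

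Erythroid markers moved along with these genes. Of 15 erythroid markers, 7 rose and 0 fell in Tsc2 KO. Gata1, the master erythroid factor, was 138, 415 and 255 normalised fragments in Tsc2 fl/fl cells and 361, 651 and 611 in Tsc2 KO cells, and Klf1, its partner, was 143, 722 and 265 and then 617, 1256 and 1210. Asns and Mthfd1 followed the erythroid sum from library to library within each Tsc2 group. Not every gene that rose did so: Aldh18a1, Mthfd2 and Cars broke that order in Tsc2 fl/fl libraries and Sars in Tsc2 KO libraries. Markers of mitosis rose as well, 10 of 20, with sums of 6732 to 9521 in Tsc2 fl/fl cells and 10302 to 11240 in Tsc2 KO cells. Of 12 monocyte and macrophage markers 5 rose and 0 fell (median log2 1.42), with sums of 239 to 918 in Tsc2 fl/fl cells and 784 to 902 in Tsc2 KO cells. Of 8 megakaryocyte markers 5 fell and 0 rose (median log2 −1.51), with sums of 396 to 827 and 173 to 197. Of the 11 GMP markers 2 fell and 0 rose, and 0 of 10 neutrophil markers passed. The part of any of these lists in the changes of the 40 genes was not tested.

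**Figure D3:**
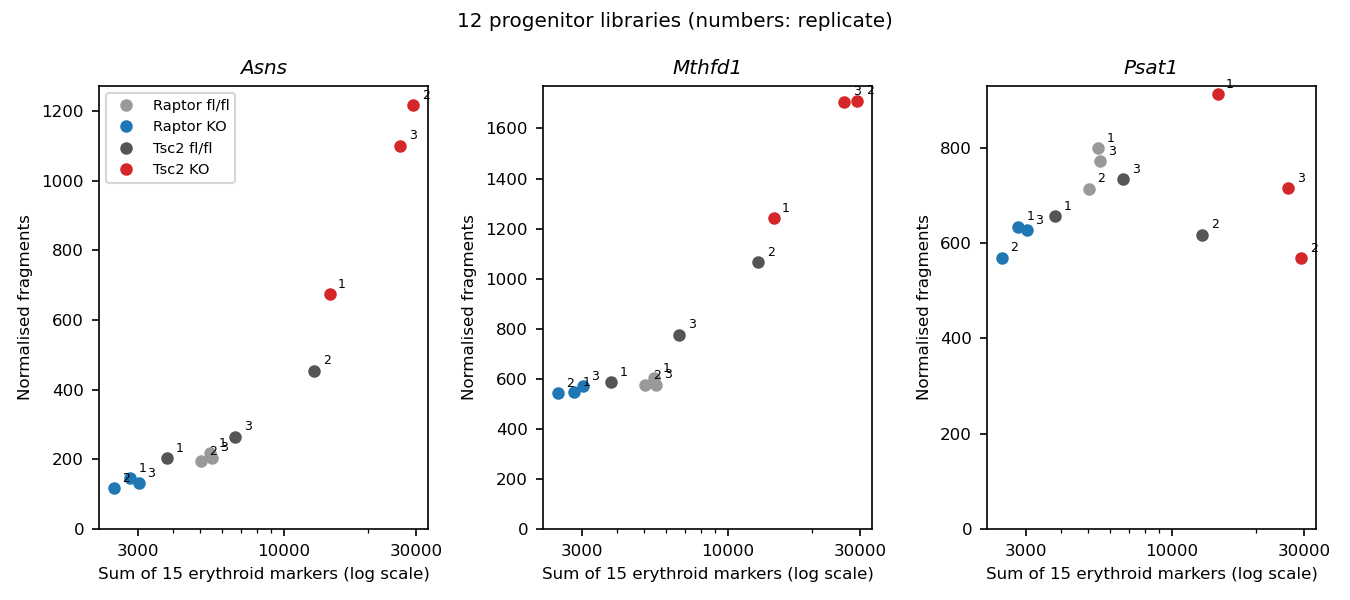
Normalised fragments of Asns, Mthfd1 and Psat1 (vertical axes) against the summed level of 15 erythroid markers (horizontal axes, log scale) in the 12 GMP libraries; each point is a library with its replicate number. Asns runs from 118 to 1217 and Mthfd1 from 542 to 1711, both highest where the erythroid sum is highest, and Psat1 shows no such order. Genes that rose in Tsc2 KO without keeping the order of the erythroid sum, such as Aldh18a1 and Sars, are not shown.

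The Tsc2 count rested on few libraries and on a spread shared with the Raptor line. Without Tsc2 KO library 3 it came to 6 genes, without KO library 2 to 8, and without fl/fl library 1 to 11. It was 11 when only the Tsc2 line was fitted, so that the spread came from that line alone. Leaving out both male libraries (chosen after seeing the data) also gave 11. Without the mean-variance trend and robust moderation the count was 9. The share of all genes passing in these fits is not given here, so these counts are not set against a background. Asns, Aldh18a1, Eif4ebp1, Mthfd1, Sars and Hars passed in every one of 19 alternative fits. Atf3 lost its call in 12, Yars in 10 and the other 11 genes in 1 to 7 each.

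Loss of Raptor gave 1 call. Of 39 genes, 0 rose and 1, Mthfd2, fell in Raptor KO against Raptor fl/fl GMPs, where 1.53% of all genes rose and 2.42% fell (limma). An unadjusted p under 0.05 was found for 10 of the 39 and for 2510 of all 13237 genes tested. Mthfd2 was 163, 119.9 and 72.2 normalised fragments in Raptor fl/fl cells and 40.3, 43.1 and 52.6 in Raptor KO cells. All KO libraries lay below all controls, a 2.46-fold fall (log2 −1.30, SE 0.24, adjusted p = 0.00576) that passed in each of 19 alternative fits. The median log2 fold change over the 39 genes was −0.15, against 0.03 over all genes tested. In 10 genes every KO library was below every control and in 1, Shmt1, every one was above, where 13.1% and 13.3% of all genes did so.

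Several genes that rose in Tsc2 KO were lower in Raptor KO libraries without passing. Asns was 219, 195 and 205 normalised fragments in Raptor fl/fl cells and 147, 118 and 132 in Raptor KO cells (log2 −0.64, interval −1.18 to −0.09, adjusted p = 0.179). Ddit3 was 78.6, 68.5 and 82.0 in Raptor fl/fl cells and 41.0, 44.6 and 44.2 in Raptor KO cells (log2 −0.80, interval −1.29 to −0.31, adjusted p = 0.0588). Aldh18a1 was 229, 259 and 222 and then 161, 144 and 166 (log2 −0.59, interval −0.94 to −0.24, adjusted p = 0.0531). In all 3 the groups do not overlap. Fitted on the Raptor line alone, Asns, Ddit3, Aldh18a1 and Mars passed as well, all lower, for 5 calls in place of 1, and with a term for sex the count was 4. The share of all genes passing in these fits is not given here, so these counts are not set against a background.

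Psat1 was 799, 714 and 772 in Raptor fl/fl cells and 635, 569 and 627 in Raptor KO cells (log2 −0.32, adjusted p = 0.232), and Phgdh was 787, 683 and 708 and then 722, 657 and 641 (log2 −0.11, adjusted p = 0.824). The Psat1 groups do not overlap and the Phgdh groups do. Atf4 was 796, 807 and 738 in Raptor fl/fl cells and 779.6, 781 and 684 in Raptor KO cells (log2 −0.06, interval −0.35 to 0.23). Eif4ebp1 was 424, 274 and 313 and then 399, 271 and 391 (log2 0.07, interval −0.34 to 0.48). Neither separated the groups. Atf3 was 115, 117 and 97.4 in Raptor fl/fl cells and 70.7, 128 and 78.9 in Raptor KO cells (log2 −0.29, adjusted p = 0.576). Trib3 stood at no more than 2.23 in any Raptor library, and Chac1 and Sesn2 ranged from 0 to 8.46 and from 3.11 to 18.0.

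Of the synthetases, 0 of 16 passed in Raptor KO and 4 (Cars, Mars, Nars and Wars) had every KO library below every control. Aars was 120.5, 177 and 89.3 normalised fragments in Raptor fl/fl cells and 75.0, 62.4 and 116 in Raptor KO cells (log2 −0.60, interval −1.15 to −0.05, adjusted p = 0.216). Mars was 359, 388 and 322 and then 244, 280.2 and 258 (log2 −0.45, adjusted p = 0.0996). The other log2 fold changes ran from −0.57 for Cars to 0.18. Erythroid markers moved here too: 5 of 15 fell and 0 rose, with all 3 sums of Raptor KO below all 3 of Raptor fl/fl. B lymphoid markers fell in both lines, 7 of 8 in Raptor KO and 6 of 8 in Tsc2 KO. Their part in the values of the 40 genes was not tested.

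The response to Tsc2 loss differed from the response to Raptor loss for 15 genes. With the change in Raptor KO subtracted from the change in Tsc2 KO, 14 genes passed above 0 and 1 below, where 6.44% and 5.99% of all genes did, and the median was 0.72 over the 39 genes and −0.08 over all. Mthfd2 differed by 2.37 on the log2 scale (SE 0.34, adjusted p = 0.000626), Asns by 2.37 (SE 0.36, adjusted p = 0.00135) and Aldh18a1 by 1.54 (SE 0.24, adjusted p = 0.000899). Ddit3 differed by 1.72 (SE 0.33, adjusted p = 0.00369), Mthfd1 by 1.05 (adjusted p = 0.0103) and Eif4ebp1 by 0.88 (adjusted p = 0.0434). The 8 synthetases that passed were Aars (1.55), Cars (1.38), Yars (1.18), Mars (1.03), Hars (1.01), Sars (0.78), Gars (0.72) and Nars (0.54). Nars (asparagine) had passed in neither knockout alone: it was 661, 639.9 and 617 in Raptor fl/fl cells, 543, 563 and 477 in Raptor KO cells, 639.9, 606 and 642 in Tsc2 fl/fl cells and 811, 682 and 782 in Tsc2 KO cells. Shmt1 was the 1 gene below 0 (−1.24, SE 0.36, adjusted p = 0.032), at 189, 228 and 183 in Raptor fl/fl cells and 266, 269 and 251 in Raptor KO cells and at the Tsc2 values given earlier. The count fell to 6 without trend and robust moderation, where the share of all genes passing is not given here. Ddit3, Asns, Aldh18a1, Mthfd2, Cars and Mars passed in all 24 alternative fits. Eif4ebp1 lost its call in 12 of the 24, Shmt1 and Nars in 10 each, Sars in 5 and Gars in 4. Mthfd1, Aars, Yars and Hars lost theirs in 1 each. All 15 erythroid markers had a difference above 0 and 12 passed, and all 20 mitosis markers were above 0 and 11 passed. Of 10 neutrophil markers 3 passed above 0, and of 12 monocyte and macrophage markers 2 passed above 0 and 1 below. Their part in these differences was not tested.

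Between the fl/fl groups of both lines 1 of 39 genes passed. Atf3 was higher in Tsc2 fl/fl at 212, 194 and 362 normalised fragments than in Raptor fl/fl at 115, 117 and 97.4 (log2 1.16, SE 0.24, adjusted p = 0.0349), where 0.483% of all genes were higher and 0.121% lower. It lost that call in 7 of 19 alternative fits, among them those without Raptor fl/fl library 1, 2 or 3 or Tsc2 fl/fl library 1 or 3. In Atf3 and Atf4 every Tsc2 fl/fl library lay above every Raptor fl/fl library, and in Phgdh and Pycr1 every one lay below, 2 genes each way, against 8.18% and 9.25% of all genes.

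**Figure D4:**
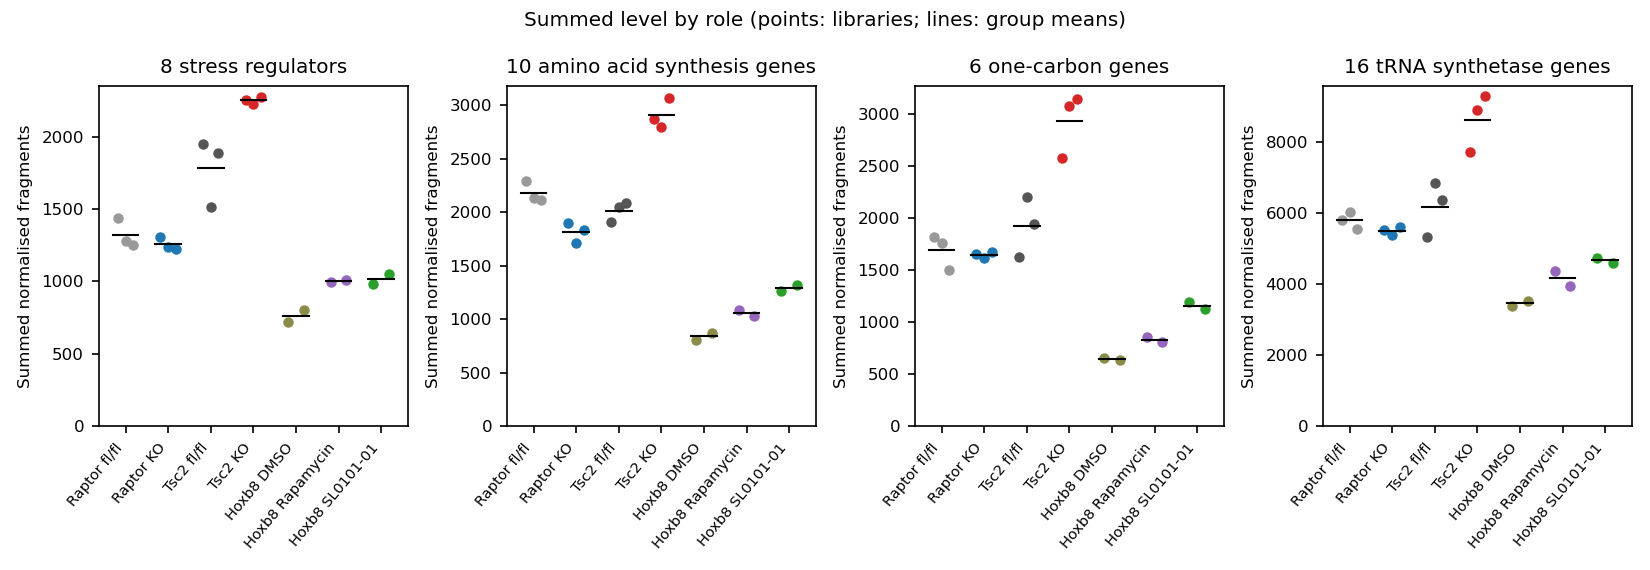
Summed normalised fragments of the 4 role groups (vertical axes) in each of the 18 libraries, by group (horizontal axes); points are libraries and lines are group means. In all 4 roles every Tsc2 KO library is above every other GMP library, and every Hoxb8 library is below every GMP library.

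The sums by role show the libraries one by one. The 16 synthetases summed to 5327, 6839 and 6383 normalised fragments in Tsc2 fl/fl cells and 7722, 8899 and 9287 in Tsc2 KO cells, and to 5813, 6026 and 5553 in Raptor fl/fl cells and 5515, 5372 and 5609.5 in Raptor KO cells. The 10 enzymes of amino acid synthesis summed to 1907, 2044 and 2084 in Tsc2 fl/fl cells and 2872, 2792 and 3065 in Tsc2 KO cells, and to 2290.0, 2129.9 and 2109 in Raptor fl/fl cells and 1902, 1711 and 1836 in Raptor KO cells. In the Raptor line the amino acid sums do not overlap and the synthetase sums do. Sums are carried by the more abundant genes and were not tested.

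In Hoxb8 cells both inhibitors were compared with DMSO. Rapamycin, the mTORC1 inhibitor, was followed by a rise of 10 genes and a fall of 1 among 37 tested, where 5.4% of all 11804 genes tested rose and 6.35% fell. The 10 were Psat1, Aldh18a1, Shmt1, Shmt2, Mthfd1, Eif4ebp1, Eprs, Iars, Kars and Yars, and Atf3 fell. The median was 0.21, against −0.01 over all genes. In 20 genes both rapamycin libraries lay above both DMSO libraries and in 4 both lay below, but with 2 against 2 this held for 25.3% and 27% of all genes. Cth, Cbs and Aldh1l2 were too low to be tested in these cells.

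Psat1 was 210.2 and 222 normalised fragments in DMSO and 407 and 381 in rapamycin libraries. It rose 1.82-fold (log2 0.86, SE 0.16, adjusted p = 0.000915), where it had passed in neither knockout. Aldh18a1 was 41.1 and 32.4 in DMSO and 88.0 and 71.7 in rapamycin (log2 1.10, SE 0.26, adjusted p = 0.00633). Shmt2 was 154 and 192 and then 317 and 286 (log2 0.80, SE 0.17, adjusted p = 0.00217). Mthfd1 was 114 and 86.3 in DMSO and 163 and 157 in rapamycin (log2 0.68, adjusted p = 0.0196). Shmt1 was 71.1 and 67.2 and then 104 and 116 (log2 0.66, adjusted p = 0.0387). Both cytosolic and mitochondrial hydroxymethyltransferases were thus higher, but the Shmt1 call was fragile. It was lost, for example, with the same total in each library, with only the groups compared or with all 18 libraries in 1 fit. Mthfd2 was 213 and 209 in DMSO and 167 and 138 in rapamycin, lower in both libraries without passing (log2 −0.47, interval −0.84 to −0.11, adjusted p = 0.0895). Asns was 243 and 287 and then 293 and 282 (log2 0.12, interval −0.21 to 0.46, adjusted p = 0.7), and Phgdh was 209 and 245 and then 195 and 196 (log2 −0.21, adjusted p = 0.479).

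Among synthetases, Yars was 77.4 and 74.7 normalised fragments in DMSO and 151 and 129 in rapamycin libraries (log2 0.87, SE 0.21, adjusted p = 0.00778). Kars was 229 and 263 and then 436 and 349 (log2 0.67, SE 0.16, adjusted p = 0.00759). Eprs, which loads glutamate and proline, was 225 and 268 and then 429 and 343 (log2 0.64, SE 0.16, adjusted p = 0.012). Iars was 107 and 129 and then 170.5 and 187 (log2 0.60, SE 0.19, adjusted p = 0.0419), and its call was lost in the same alternative fits as that of Shmt1. These are 4 of 16, and Kars and Eprs had not passed in Tsc2 KO. Aars was 145 and 203 in DMSO and 161 and 163 in rapamycin (log2 −0.08, interval −0.47 to 0.31). Of the stress regulators, Eif4ebp1 was 283 and 320.4 in DMSO and 416 and 469 in rapamycin (log2 0.55, SE 0.15, adjusted p = 0.0192). Atf3 was 12.6 and 12.4 and then 1.83 and 2.24 (log2 −2.16, SE 0.59, adjusted p = 0.0178), where 2 fragments stand behind each rapamycin value. Atf4 was 309 and 349 and then 413 and 418 (log2 0.34, interval 0.03 to 0.65, adjusted p = 0.164), and Ddit3 and Trib3 did not pass (adjusted p = 0.838 and 0.36).

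SL0101-01 at 10 nM was followed by a rise of 15 genes and a fall of 0 among the 37, where 5.09% of all genes rose and 5.79% fell, against the same DMSO libraries. The median was 0.44, against −0.02 over all genes. The 15 held 4 of 5 one-carbon enzymes, 7 of 16 synthetases, Phgdh, Psat1, Aldh18a1 and Atf4. Both SL0101-01 libraries lay above both DMSO libraries in 24 genes and below in 4, where 26.6% and 28.2% of all genes did. Mthfd1 was 239 and 224 normalised fragments (log2 1.22 against DMSO, SE 0.19, adjusted p = 0.000198), Phgdh 473 and 397 (log2 0.93, SE 0.16, adjusted p = 0.000681) and Psat1 293 and 373 (log2 0.61, SE 0.16, adjusted p = 0.0173). All of these exceed both DMSO libraries. Aldh18a1 was 84.0 and 119 (log2 1.43, SE 0.26, adjusted p = 0.00091), Shmt2 339 and 317 (log2 0.93, adjusted p = 0.000825) and Shmt1 147 and 149 (log2 1.09, adjusted p = 0.00131). Mthfd1l, the mitochondrial formate producer, was 104 and 86.3 in DMSO and 164 and 184 in SL0101-01 (log2 0.86, SE 0.20, adjusted p = 0.00657). Atf4 was 487 and 554 (log2 0.66, SE 0.15, adjusted p = 0.00606), the 1 comparison of the 7 in which its mRNA passed.

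The 7 synthetases that rose with SL0101-01 were Eprs at 495 and 424 normalised fragments (log2 0.90), Tars at 282 and 317 (0.77), Yars at 109 and 141 (0.70), Mars at 408 and 353 (0.69), Gars at 628 and 478 (0.62), Vars at 815 and 663 (0.61) and Kars at 352 and 353 (0.52). Their DMSO values were 183 and 166 for Tars, 249 and 222 for Mars, 367 and 348 for Gars and 488 and 472 for Vars, each below both inhibitor libraries. The adjusted p ran from 0.00101 for Eprs to 0.04 for Kars. Several genes that had risen in Tsc2 KO cells did not pass here, while Aldh18a1, Mthfd1, Gars, Mars and Yars did. Asns was 289 and 314 (log2 0.19, interval −0.14 to 0.52, adjusted p = 0.504), Ddit3 24.5 and 21.2 against 26.9 and 48.1 in DMSO (log2 −0.64, adjusted p = 0.278), and Hars 164 and 154 against 145 and 175. Mthfd2 was 302 and 248 (log2 0.37, adjusted p = 0.197), Aars 253 and 215 (log2 0.44, adjusted p = 0.151), Eif4ebp1 398 and 384 (log2 0.38, adjusted p = 0.124), and Atf3 3.50 and 7.58 (log2 −1.12, adjusted p = 0.251). Chac1, Sesn2 and Cars did not pass under either inhibitor, with Chac1 between 32.4 and 53.0 in all 6 Hoxb8 libraries, Sesn2 between 21.6 and 59.6 and Cars between 66.4 and 105.

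**Figure D5:**
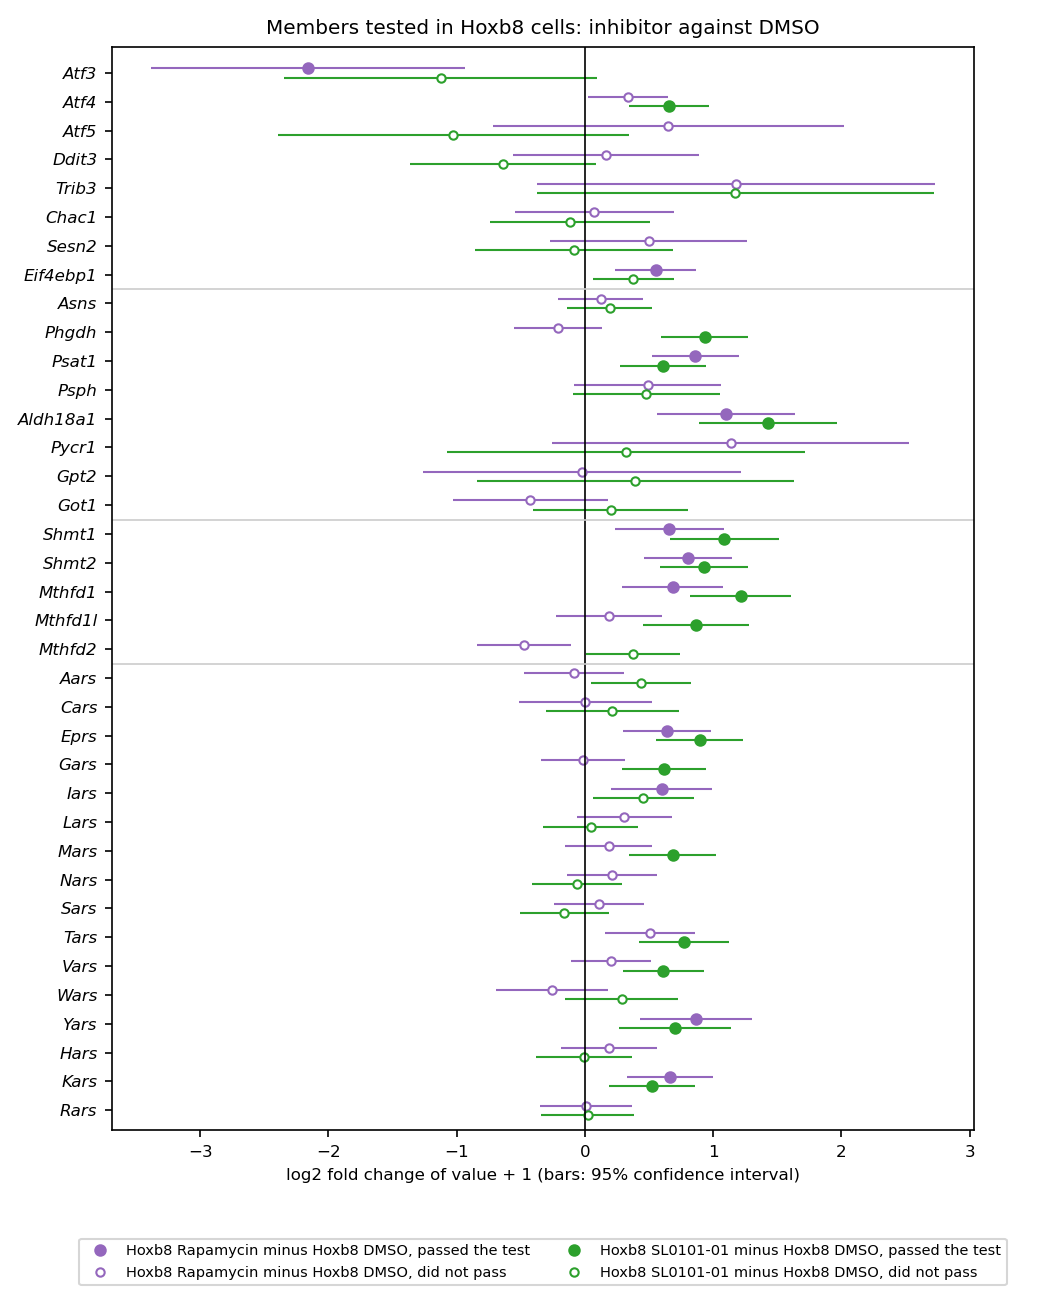
Log2 fold change of each of the 37 genes tested in Hoxb8 cells (horizontal axis, value plus 1) under rapamycin and under SL0101-01, both against the same DMSO libraries; bars are 95% confidence intervals and filled points passed the test. Rapamycin has 10 filled points above 0 and Atf3 below it, and SL0101-01 has 15 above 0 and none below.

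The inhibitors, at 100 nM and 10 nM, differed from each other in 4 genes, all lower with rapamycin, where 8.87% of all genes differed, 4.43% higher and 4.44% lower with rapamycin. In 8 genes both rapamycin libraries lay above both SL0101-01 libraries and in 16 below, against 26.1% and 25.1% of all genes. Phgdh was 195 and 196 normalised fragments with rapamycin and 473 and 397 with SL0101-01 (log2 −1.14, SE 0.16, adjusted p = 0.000225). Mthfd2 was 167 and 138 and 302 and 248 (log2 −0.85, SE 0.18, adjusted p = 0.0049), Gars 359 and 349 and 628 and 478 (log2 −0.63, SE 0.16, adjusted p = 0.0156), and Mthfd1l 108 and 109 and 164 and 184 (log2 −0.67, SE 0.20, adjusted p = 0.0378). Psat1 did not separate them (log2 0.25, interval −0.09 to 0.59), nor did Aldh18a1 (log2 −0.33, interval −0.87 to 0.21), and these intervals leave room for differences of either sign. The doses differ and the labels give no dose series, so the agents are compared only as used.

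The Hoxb8 counts rest on 2 libraries a group. Leaving out DMSO library 1, DMSO library 2 or rapamycin library 1 reduced the rapamycin count from 11 to 3; leaving out DMSO library 1, DMSO library 2 or SL0101-01 library 2 reduced the SL0101-01 count from 15 to 7, 6 and 9; the count between the inhibitors went from 4 to 2 without rapamycin library 2 and to 1 without SL0101-01 library 1. Without trend and robust moderation 0 members passed in any of these 3 comparisons. The share of all genes passing in these alternative fits is not given here, so their counts are not set against a background. In the fits reported, 14, 19 and 14 of 37 members had an unadjusted p under 0.05, as did 2882, 2823 and 2787 of all 11804 genes tested. Other cell programmes moved in the same libraries: mitosis markers fell in 17 of 20 with rapamycin and 1 of 20 with SL0101-01, and neutrophil markers fell in 3 of 10 and 7 of 10. Neutrophil sums were 115135 and 159789 in DMSO, 62922 and 96777 in rapamycin and 54123 and 81513 in SL0101-01 libraries. Sums of the 11 GMP markers were 13281 and 14339, 59077 and 57361, and 26008 and 32624 in the same order. Mpo alone was 6305 and 6634, 43031 and 39285, and 14940 and 19997. Gata1 was at 0 in 5 of 6 Hoxb8 libraries and at 0.790 in the other. Their part in the inhibitor results was not tested.

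Across all groups, Hoxb8 libraries were often lower than floxed GMPs. Of 39 genes, 21 had all 6 Hoxb8 libraries below all 6 floxed libraries, 1 had all above and 17 overlapped, where 19.7% of 13707 genes were all below and 15% all above. By role the all-below genes were 8 of 16 synthetases, 6 of 10 amino acid enzymes, 4 of 5 one-carbon enzymes and 3 of 8 stress regulators. Psat1 ran from 618 to 799 normalised fragments in floxed GMPs and from 210.2 to 407 in Hoxb8 cells, Mthfd1 from 575 to 1065 and from 86.3 to 239, and Atf4 from 738 to 1292 and from 309 to 554. Chac1 was the 1 gene above, at 0 to 6.49 in floxed GMPs and 32.4 to 53.0 in Hoxb8 cells. Asns and Mthfd2 overlapped, with Hoxb8 ranges of 243 to 314 and 138 to 302. Source, growth conditions and genotype all differ between these groups and cannot be told apart, so no test was made.

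The 30 genes with a promoter window were also counted by the ATF4 letters. In Tsc2 KO, 7 of the 11 genes with the match rose, among them Asns and the synthetases Aars, Gars, Iars and Yars, and 7 of the 19 without it rose and 1 fell. With SL0101-01, 3 of 11 with the match rose and 11 of 18 without it, and with rapamycin 2 rose and 1 fell of 11 with it and 7 of 18 without it rose. These counts are a description, and no test of the difference was made. Tars, 1 of the windows shown, has the letters close to the start; it rose with SL0101-01 and did not pass in Tsc2 KO, where it was 233, 338 and 343 in Tsc2 fl/fl cells and 375, 387 and 416 in Tsc2 KO cells (log2 0.38, adjusted p = 0.118).

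Beyond the 40 genes, 70 others of the same pathways were looked at: kinases and feedback genes of the stress response, other amino acid and folate enzymes, other parts of the cytosolic synthetase complex and the mitochondrial synthetases. In Tsc2 KO 7 of 67 tested rose and 1 fell, 11.9% against 12.4% of all genes, so that share was close to the background. Ddit4, an mTORC1 inhibitor induced by stress, had a mean of 17.2 ± 5.54 normalised fragments in Tsc2 fl/fl and 77.9 ± 27.8 in Tsc2 KO (SD, n = 3; log2 2.09, SE 0.51, adjusted p = 0.0119). Eef1e1, a scaffold of the multi-synthetase complex, was 246 ± 38.8 and 421 ± 87.3 (log2 0.76, SE 0.17, adjusted p = 0.00666). Of 17 mitochondrial synthetases, encoded by separate nuclear genes, 0 rose and 1, Lars2, fell (log2 −0.47, adjusted p = 0.0337), where 5.26% of all genes rose and 7.12% fell. Lars2 was 4828 ± 886 in Tsc2 fl/fl and 3472 ± 616 in Tsc2 KO (SD, n = 3), and its groups overlap. The median log2 fold change of the mitochondrial synthetases was 0.12, with 12 of 17 above 0, and they were not tested against the cytosolic ones. In Raptor KO 1 rose and 1 fell of 67, 2.99% against 3.94% of all genes, and the one that rose was Xbp1, a factor of the unfolded protein response, at 543 ± 69.0 in Raptor fl/fl cells and 844 ± 10.0 in Raptor KO (SD, n = 3; log2 0.65, adjusted p = 0.0183).

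In Hoxb8 cells 6 of 64 such genes rose and 1 fell with rapamycin, and 8 rose and 3 fell with SL0101-01, 10.9% and 17.2% in either direction against 11.7% and 10.9% of all genes. Prodh, which breaks proline down, was 24.8 ± 6.01 normalised fragments in DMSO, 66.5 ± 0.590 with rapamycin and 86.0 ± 14.4 with SL0101-01 (SD, n = 2), with log2 fold changes of 1.41 (adjusted p = 0.00136) and 1.76 (adjusted p = 0.000216). Fpgs, which retains folate in cells by adding glutamates, was 19.7 ± 5.61, 52.7 ± 3.25 and 53.6 ± 7.78, with log2 fold changes of 1.40 and 1.42. Mat2a, which makes S-adenosylmethionine, was 526 ± 43.5, 731 ± 60.0 and 886 ± 26.3, with log2 fold changes of 0.47 and 0.75. Ass1, the argininosuccinate synthetase of arginine synthesis, had a mean of 13.6 ± 0.579 in DMSO and was near 0 with both inhibitors (adjusted p = 0.000831 and 0.00118). Against the level of 3 fragments per library it was at least 4.44-fold lower with rapamycin and at least 5.54-fold lower with SL0101-01, taking the listed values as they stand. The listed means were 0.0025 with rapamycin and 0.0038 with SL0101-01, below the value of 1 fragment, so they are not whole fragments. How fragments were assigned to Ass1 was not tested.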

How the data were processed

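RNA from 18 libraries was deposited as 1 table of signal values: for every gene, the authors' fragment number was scaled by a size factor of the library. BWA, TopHat2 2.0.10, Cufflinks 2.2.1 and Cuffnorm are named in the submitters' processing notes, and the genome build was not given in sources used here. In each library 98.0% to 99.0% of non-zero values were multiples of a single step to within 0.01, and the step gave the number of fragments. Groups were taken from the sample titles.

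The 12 GMP libraries (4 groups) and the 6 Hoxb8 libraries (3 groups) each had their own limma fit (limma 3.58.1, R 4.3.3) with an expression trend and robust moderation, after 1 was added to each value and log2 taken. Genes needed a value of 1 in at least 3 GMP or 2 Hoxb8 libraries. Adjusted p-values follow Benjamini and Hochberg over all genes of each of 7 comparisons, with a threshold of 0.05. The script was tested on simulated data.

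The members and lists were chosen with earlier results of these data known. Genes named with every value are those that passed in at least 1 comparison plus Atf4, Atf3, Ddit3, Trib3, Asns, Phgdh, Psat1, Mthfd2, Eif4ebp1 and Aars, and pathway genes are at most 4 per list by adjusted p. Alternatives changed the added value, filter, scaling, moderation, libraries fitted, replicate block and sex term, or left out 1 library. SmartSeq2 reads carry no strand, so overlapping antisense genes cannot be told apart. The result of 1 gene from the wider pathway list is not reported here.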

Additional observations from a re-analysis of the deposited data

Results flagged for a closer look

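For 15 of the 40 genes, the change in Tsc2 KO GMPs and the change in Raptor KO GMPs differed by a direct test of the difference (limma interaction, adjusted p below 0.05). The difference on the log2 scale, Tsc2 change minus Raptor change, was 1.72 for Ddit3 and 0.88 for Eif4ebp1 among stress regulators. It was 2.37 for Asns and 1.54 for Aldh18a1 among amino acid enzymes. Among one-carbon enzymes it was 2.37 for Mthfd2, 1.05 for Mthfd1 and −1.24 for Shmt1, the 1 gene with the opposite sign. Among synthetases it was 1.55 for Aars, 1.38 for Cars, 1.18 for Yars, 1.03 for Mars, 1.01 for Hars, 0.78 for Sars, 0.72 for Gars and 0.54 for Nars. The calls were not equally stable. Of 24 alternative fits, Eif4ebp1 lost its call in 12, Shmt1 and Nars in 10 each, Sars in 5 and Gars in 4. Erythroid markers differed between the lines as well, with all 15 above 0 and 12 past the threshold, and their part in these values was not tested.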

How the results depend on the processing

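None of the 66 calls of single genes reversed in any alternative. Of them, 24 passed in every fit without 1 library, and 14 passed in every other alternative. Beside the counts the report gives, quantile normalization brought the Raptor KO count from 1 to 3, and a sex term or leaving out both male libraries (chosen after seeing the data) to 4. Only the groups compared gave 5 for Raptor KO and 11 for Tsc2 KO, which was 11 without both male libraries too. Without trend and robust moderation the counts were 9 for Tsc2 KO, 6 for the difference between the lines and 0 for the fl/fl groups, both inhibitors and their difference. With no filter the fl/fl count was 0. Fitting all 18 libraries together gave 7 for rapamycin and 2 between the inhibitors. The cause was not tested. Leaving out 1 library gave 1 in each fit for Raptor KO, 6 to 22 for Tsc2 KO, 10 to 17 for their difference, 0 to 1 for the fl/fl groups, 3 to 9 for rapamycin, 6 to 10 for SL0101-01 and 1 to 5 between the inhibitors; in Hoxb8 cells the lone library left is then assumed to vary like the other groups.

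With the replicate block the counts were 5 for Raptor KO, 23 for Tsc2 KO, 21 for their difference, 1 for the fl/fl groups, 13 for rapamycin, 15 for SL0101-01 and 8 between the inhibitors. For none of the alternative fits is the share of all genes passing given here, so their counts are not set against a background. With group means taken out, same-numbered libraries correlated at 0.0103 to 0.0475 in the Raptor line and −0.0318 to 0.245 in the Tsc2 line. Libraries of unlike number correlated at −0.036 to 0.0131 and at −0.294 to 0.111. In the Tsc2 line the highest values were those of the libraries numbered 1 (0.217) and 2 (0.245). The main fits used no pairing by number, and whether the numbers mark pairs was not tested. The planned count-based tests were not run, since not all values are whole multiples of a step. At 2.31 to 3.52 M fragments, genes such as Trib3, Cth, Cbs and Atf5 rest on a few fragments per library.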
